A study of Mus musculus with 27 samples.

Results

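Hepatokines are proteins that hepatocytes secrete into the blood and that act on other tissues or on the liver itself. The 9 hepatokine genes described here are Lect2, Fgf21, Angptl4, Angptl6, Angptl8, Ahsg, Fetub, Gdf15 and Inhbe. They were taken by symbol from an expression table of 21823 genes, and all 9 were found and measured. RNA came from areas cut by laser microdissection from frozen liver sections of female wild-type C57BL/6 mice (C57BL/6N in the study's methods). Livers were from non-pregnant mice (NP) and from mice at day 8 (dpc8) and day 16 (dpc16) post coitum, and the labels name no other treatment or allele. In each stage zone 1 lay around the portal vein, zone 3 around the central vein and zone 2 between them. The 9 groups of stage and zone had 3 libraries each, numbered 1 to 3, which makes 27 libraries. The labels do not say which animal a library came from, so p-values measure the spread between libraries, and each zone holds every cell type of the cut area, not hepatocytes alone.

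The hepatokines differ in what is known of their work. LECT2 (leukocyte cell-derived chemotaxin 2) is a small zinc-binding protein made mainly by hepatocytes, and its gene is a known target of Wnt and beta-catenin signalling, which is strongest around the central vein. FGF21 is a hormone that acts through FGF receptors together with beta-Klotho and is raised by fasting, through PPARalpha, and by cell stress. ANGPTL4 and ANGPTL8 inhibit lipoprotein lipase, the enzyme that frees fatty acids from blood triglycerides. Fetuin-A (Ahsg) is an abundant plasma protein that binds calcium phosphate, and fetuin-B (Fetub) is a protease inhibitor needed for fertilization. GDF15 is a stress-induced hormone that acts through GFRAL in the hindbrain. Inhbe encodes the beta-E subunit of inhibins and activins, a liver product of the TGF-beta superfamily.

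Values are FPKM, which divide the reads of a gene by its transcript length and by the depth of the library, so that levels can be set side by side between genes. The steps between low values correspond to 7.53 to 33.3 M mapped reads (M for mega) per library, with a median of 16.4 M. Differences are on the log2(FPKM + 1) scale with their standard error (SE), from limma fitted to all 27 libraries and the 12952 genes that reached 1 FPKM in 3 or more libraries. A call is an adjusted p (Benjamini-Hochberg over those genes, two-sided) under 0.05. All 9 members passed the expression filter. Fgf21 reached an FPKM of 1 in 9 libraries, Lect2 and Gdf15 in 25, and the other 6 in all 27. Outside dpc16, Fgf21 reached it only in number 1 of NP zones 1 and 2 (2.34 and 1.17 FPKM), so it passed the filter only through dpc16.

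The zone labels were checked against their markers. Of 10 pericentral markers, 10 were lower in zone 1 than in zone 3 at each stage, and of 10 periportal markers 7, 7 and 9 were higher in zone 1 at NP, dpc8 and dpc16. Albumin took 3.71% to 21.0% of the FPKM sum. At dpc16 it took 15.2% to 21.0%, except 7.98% in number 3 of zone 2 and 9.59% in number 3 of zone 3. At NP and dpc8 it took at most 12.0%. The FPKM sum was 834568 to 988500 at dpc16 outside those libraries and 499866 to 704327 at NP and dpc8. The part of this in the dpc16 differences was not tested. Some libraries stood apart. In 6 of them, from mice labelled female, the summed FPKM of 4 Y-linked genes was 7.92 to 23.2, against 0 to 2.97 in the other 21. The mean log2 level of 10 connective tissue and smooth muscle genes was 4.88 to 6.78 in these 6 and 0.92 to 4.22 in the others, and that of 4 hepatocyte markers was 10.8 to 11.9 against 11.6 to 13.2. The 6 were number 1 of NP zone 1, number 2 of NP zone 3, number 1 of dpc8 zone 1, number 2 of dpc8 zone 2, and number 3 of both dpc16 zone 2 and dpc16 zone 3. Each came from a different group, so without them these groups had 2 libraries each. For most differences printed below, values without these 6 libraries stand beside them where the call, the sign or the size changed.

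Lect2 was the only one of the 9 hepatokines called between zones by limma. It was 15.8-fold higher in mean FPKM in zone 3 than in zone 1 at NP, 21.6-fold at dpc8 and 142.6-fold at dpc16. With pregnancy its level was lower at dpc16 in zones 1 and 2, by 25.6-fold and 9.49-fold against NP in mean FPKM. The 142.6-fold and 25.6-fold ratios rest on a dpc16 zone 1 mean of 0.929 FPKM, which stands for few reads, and are imprecise. By limma, the change from NP to dpc16 was not called as different between zones 1 and 3 (adjusted p = 0.416). Over the 9 members and 18 comparisons between 2 groups, 14 differences were called, and 12 of these were of Lect2. The share of all genes called is given beside each comparison below.

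The gene of Lect2 (ENSMUSG00000021539.9) lies on the minus strand of chromosome 13 at 56542464 to 56548502 in mm10, with 4 exons in its longest transcript of 837 bases. Its promoter is shown because the zonal level of the gene can be read beside the Wnt target genes below. RefSeq on GRCm38.p6, the assembly that mm10 stands for, places the 250 bases before its start at chr13:56548539-56548788, minus strand. The capitals mark the match to the TCF/LEF core CTTTGAT, the letters bound by the factors that carry beta-catenin to DNA, here on the strand opposite to the gene.

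Lect2: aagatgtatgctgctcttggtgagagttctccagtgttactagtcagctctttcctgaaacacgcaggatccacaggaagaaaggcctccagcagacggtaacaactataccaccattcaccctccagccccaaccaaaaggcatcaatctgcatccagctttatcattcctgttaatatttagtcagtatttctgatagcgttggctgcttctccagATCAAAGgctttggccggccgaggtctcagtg

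This match lies 32 to 26 bases before the RefSeq start. The core was searched on both strands of the 250 upstream bases of 32851 RefSeq windows, and 3.21% of them held it. Of the 8 members with a RefSeq promoter entry, Lect2 alone held these letters. A match is a description of the sequence and not a measured binding site.

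In NP mice the Lect2 levels of libraries 1, 2 and 3 were 13.7, 21.8 and 36.0 FPKM in zone 1. They were 107, 119 and 179 FPKM in zone 2, and 276, 311 and 543 FPKM in zone 3. The 3 zones did not overlap, and the level was higher toward the central side in all 3 numbers. At dpc8 the values were 6.89, 9.87 and 22.0 FPKM in zone 1, 73.1, 45.9 and 103 in zone 2, and 268, 243 and 324 in zone 3. Again no zone overlapped another. At dpc16 they were 1.21, 0.640 and 0.941 FPKM in zone 1, 13.7, 12.0 and 16.9 in zone 2, and 138, 129 and 130.3 in zone 3. The dpc16 zone 1 values stand for about 8, 3 and 7 reads, so they place the gene near the limit of these libraries, whereas the 3 zone 3 libraries held about 1190, 1440 and 1890 reads of Lect2. For zone 1 against 3, 1 against 2 and 2 against 3, the values of 12.7%, 10.1% and 11.7% of all genes did not overlap at NP, those of 23.2%, 7.44% and 13.9% at dpc8, and those of 14.7%, 8.85% and 7.13% at dpc16.

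**Figure D1:**
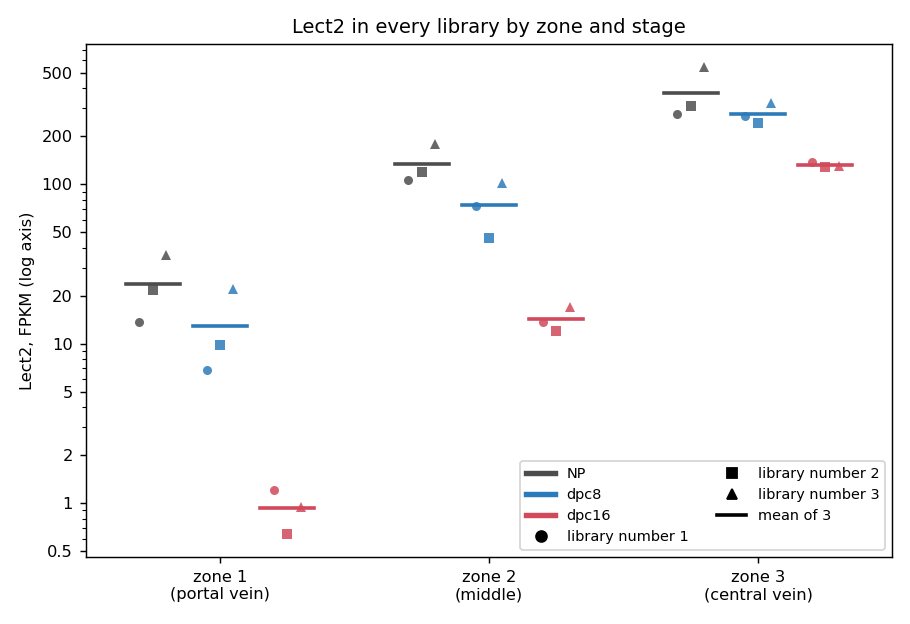
Lect2 in every library, in FPKM on a log axis, by zone (horizontal) and stage (colour), with the library number as symbol and the mean of 3 as a bar. The zones form separate steps at each stage, and dpc16 zone 1, at 0.640 to 1.21 FPKM, lies below all other groups.

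Zone 1 was lower than zone 3 by limma in each stage. The difference was -3.96 ± 0.37 (SE) at NP (adjusted p = 3.28e-07), -4.47 ± 0.37 at dpc8 (adjusted p = 5.01e-08) and -6.12 ± 0.37 at dpc16 (adjusted p = 2.98e-10). Over all genes tested, 1.34%, 1.61% and 1.55% were called in these 3 comparisons, and among the 9 members Lect2 was the one called in each. At dpc16, where the library numbers pair the zones, these were 201 genes, and 343 with the number as a block within stage. The pseudocount of 1 narrows the dpc16 difference, which was -7.05 with 0.1 added instead. Without the 6 libraries with Y-linked FPKM the 3 differences were -3.74, -4.13 and -6.13.

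The steps between neighbouring zones were called in 5 of 6 comparisons, against 0.281% of all tests of this kind over genes. Zone 1 was below zone 2, with a difference of -2.52 at NP (adjusted p = 0.00129), -2.51 at dpc8 (adjusted p = 0.00203) and -2.98 at dpc16 (adjusted p = 0.000327). Zone 2 was below zone 3 with a difference of -1.96 at dpc8 (adjusted p = 0.0119) and -3.14 at dpc16 (adjusted p = 2.20e-05). At NP the step from zone 2 to zone 3 was -1.45 (95% interval -2.21 to -0.68, adjusted p = 0.109), with values that did not overlap. It passed the threshold without the 6 libraries with Y-linked FPKM (-1.55, adjusted p = 0.0380). At dpc8 the step from zone 2 to zone 3 was not called when number 2 of zone 2, number 1 of zone 3 or number 3 of zone 3 was left out, with values between -2.23 and -1.66 over the 6 omissions. Fitted to only the libraries of the groups compared, with fewer libraries to estimate the spread, this step (adjusted p = 0.114) and the 3 steps from zone 1 to zone 2 (adjusted p = 0.170, 0.638 and 0.139 at NP, dpc8 and dpc16) were not called.

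Lect2 was lower at dpc16 than at NP. The difference was -3.60 ± 0.37 in zone 1 (adjusted p = 2.30e-06) and -3.14 ± 0.37 in zone 2 (adjusted p = 2.75e-05), where 1.37% and 2.66% of all genes were called. Without the libraries with Y-linked FPKM these were -3.92 and -3.26. In zone 3 it was -1.44 ± 0.37 (95% interval -2.20 to -0.67, adjusted p = 0.0545), where 1.32% of genes were called, and the highest dpc16 value of 138 FPKM lay below the lowest NP value of 276. This zone 3 difference passed the threshold without those libraries (-1.53, adjusted p = 0.0315). Against dpc8, Lect2 at dpc16 had a difference of -2.71 in zone 1 (adjusted p = 0.000158) and -2.24 in zone 2 (adjusted p = 0.00145, or 0.158 with only the groups compared), where 2.01% and 1.51% of genes were called. In zone 3, with 1.37% of genes called, it was -1.05 (adjusted p = 0.186). The dpc16 libraries serve both comparisons. The Lect2 values at dpc16 overlapped those of neither stage in any of the 3 zones, as for 17.4%, 17.4% and 16.7% of genes against NP and 19.9%, 13.8% and 23.3% against dpc8 in zones 1, 2 and 3. In these bulk areas, fewer cells of a type and less RNA per cell cannot be told apart. The mean log2 level of the 4 hepatocyte markers was 11.5 to 12.7 at NP and 13.0 to 13.2 at dpc16 in zone 1, 12.3 to 12.6 and 11.2 to 13.2 in zone 2, and 11.9 to 12.1 and 11.8 to 12.9 in zone 3. Of these 4 markers, 0, 1 and 1 were lower at dpc16 in zones 1, 2 and 3 and 0 were higher, both calls being Ttr, the plasma protein transthyretin (-1.94 and -1.53). Of 6 Kupffer cell markers 0, 1 and 0 were lower (Clec4f, -1.32 in zone 2), and of 6 stellate cell markers 0, 1 and 1 (Lrat, -1.63 and -2.16). Of 5 red blood cell markers 1, 0 and 0 were higher (Alas2, 1.64 in zone 1). Of 10 periportal markers 0, 1 and 2 were lower (Gls2, -2.34 and -2.46 in zones 2 and 3, and Ass1, -1.80 in zone 3) and 0, 0 and 1 higher (Hsd17b6, 2.68 in zone 3). The part of these in the Lect2 result was not tested.

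No member was called at dpc8 against NP by limma in any zone, where 0.018% of all tests over genes were called, and 2 of 27 member tests had an unadjusted p under 0.05. Both were of Lect2, at -0.89 in zone 1 (95% interval -1.65 to -0.12) and -0.90 in zone 2 (-1.66 to -0.14), the latter -0.60 without the 6 libraries with Y-linked FPKM. In zone 3 the Lect2 difference was -0.38 (-1.14 to 0.38).

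Whether the fall of Lect2 at dpc16 was larger on the portal side was tested as a contrast of the changes. The change from NP in zone 1 minus that in zone 3 was -2.16 ± 0.52 (95% interval -3.24 to -1.08, adjusted p = 0.416). The change in zone 2 minus that in zone 3 was -1.70 (-2.78 to -0.62). Neither was called with all 27 libraries and group means alone, and in the 4 contrasts of this kind 0.0174% of tests over genes and 0 of 36 member tests were called, with 2 at an unadjusted p under 0.05. The first contrast was called with array weights (-2.26, adjusted p = 0.0388) and with a covariate for connective tissue genes (-2.35, adjusted p = 0.0325), and was -2.39 without the 6 libraries with Y-linked FPKM (adjusted p = 0.183).

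Ordered by mean FPKM, the Lect2 levels ran from NP zone 3 (377 ± 145, SD, n = 3) through dpc8 zone 3 (278 ± 41.2), NP zone 2 (135 ± 38.6), dpc16 zone 3 (133 ± 5.16), dpc8 zone 2 (73.9 ± 28.4), NP zone 1 (23.8 ± 11.3), dpc16 zone 2 (14.2 ± 2.48) and dpc8 zone 1 (12.9 ± 7.98) to dpc16 zone 1 (0.929 ± 0.284). Neighbours overlapped in 4 places of this order. NP and dpc8 zone 3 overlapped, as did NP zone 2 with dpc16 zone 3, NP zone 1 with dpc16 zone 2, and dpc16 zone 2 with dpc8 zone 1. The central area at dpc16 held Lect2 within the range of the middle area of NP mice.

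The Wnt and beta-catenin targets of the central lobule give the setting for this gene. Of 16 listed and tested genes, 15, 16 and 13 were lower in zone 1 than in zone 3 at NP, dpc8 and dpc16 and 0 were higher, with median differences of -3.20, -2.88 and -3.58 (0.03, 0.08 and -0.02 over all genes). At dpc16 against NP 0, 2 and 1 of them were lower in zones 1, 2 and 3 and 0 were higher, with medians of -0.06, -0.39 and -0.50. The genes called were Notum, a Wnt inhibitor (-2.43 in zone 2), Cyp2e1, a drug-metabolizing enzyme (-1.61 in zone 2), and Nkd1, another Wnt inhibitor (-1.48 in zone 3). Without the 6 libraries with Y-linked FPKM Cyp2e1 (-1.28, adjusted p = 0.0590) and Nkd1 (-1.46, adjusted p = 0.0969) were not called. The corresponding Lect2 differences were -3.60, -3.14 and -1.44. Several listed genes were already near 0 in NP zone 1, with mean FPKM of 0 for Sp5, 0.380 for Rhbg and 0.726 for Axin2. Such genes could not fall there by as much as Lect2, so the zone 1 median cannot be set against its fall. Of the genes highest in NP zone 1, Cyp2e1 and Cyp1a2 went from 244 and 64.3 to 84.0 and 21.0 FPKM at dpc16. Glul went from 50.2 to 128 FPKM, and Oat was at 22.6 and 22.7. Against dpc8, Cyp1a2 was lower at dpc16 in zone 1 (-2.48, adjusted p = 0.0152). Glul was higher in zone 1 (1.67, adjusted p = 0.0452) and Slc1a2 in zone 2 (1.94, adjusted p = 0.0391), where Lect2 was lower (-2.71 and -2.24). Without the 6 libraries with Y-linked FPKM Cyp1a2, Glul and Slc1a2 were at -3.35, 2.12 and 2.23 and still called. Over the 27 libraries the genes whose log2 level was most like that of Lect2 were Cyp2c69 (Pearson r = 0.957), Rgn (0.951) and Slco1b2 (0.948), a description that includes the zones and stages themselves. Of the proposed LECT2 receptors, the endothelial Tie1 and the hepatocyte growth factor receptor Met were tested and neither was called by limma in 22 comparisons, with 2 tests at an unadjusted p under 0.05. Met was at 12.9 to 49.7 FPKM and Tie1 at 1.13 to 4.53 FPKM.

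**Figure D2:**
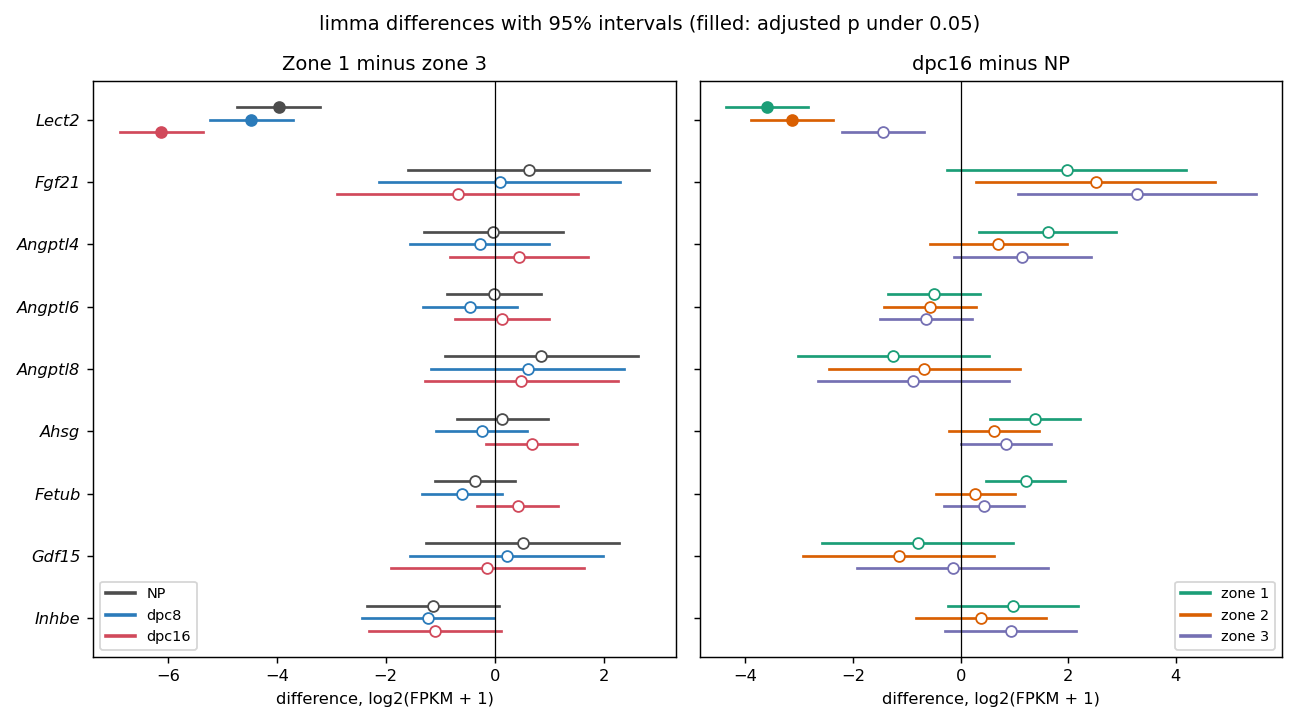
Differences on the log2(FPKM + 1) scale with 95% intervals for the 9 members, zone 1 minus zone 3 at each stage (left) and dpc16 minus NP in each zone (right), filled where the adjusted p was under 0.05. Lect2 stands at -3.96 to -6.12 on the left, and its zone 1 and zone 2 differences are the filled ones on the right.

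Fgf21 was low outside dpc16, and at dpc16 it was high in the libraries numbered 1 and 2 and low in those numbered 3. The gene (ENSMUSG00000030827.5) lies on the minus strand of chromosome 7 at 45613886 to 45615490 and has a single transcript of 951 bases and 3 exons, so its values can be turned into reads. In the 18 NP and dpc8 libraries it ranged from 0 to 2.34 FPKM, or 0 to 24 reads, and was listed at 0 in 4. At dpc16 the libraries numbered 1, 2 and 3 had 11.5, 14.9 and 1.03 FPKM in zone 1, 24.0, 26.9 and 0.160 FPKM in zone 2, and 32.1, 35.9 and 0.351 FPKM in zone 3. Numbers 1 and 2 rested on 84 to 472 reads, and number 3 on 9, 4 and 6 reads. Within numbers 1 and 2 the level was lowest in zone 1 and highest in zone 3, and number 3 stayed within the NP and dpc8 range in every zone.

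The dpc16 differences from NP were 1.97 in zone 1, 2.51 in zone 2 and 3.28 in zone 3, each with an SE of 1.07 (adjusted p = 0.539, 0.231 and 0.158). The 95% interval in zone 3 was 1.06 to 5.49. Number 3 of zones 2 and 3 belong to the libraries with Y-linked FPKM, and number 3 of zone 1 does not. Without all 6 such libraries the differences were 2.39 (adjusted p = 0.0475), 4.01 (adjusted p = 0.000902) and 4.70 (adjusted p = 0.000625). In dpc16 zones 2 and 3 this took out the low values of 0.160 and 0.351 FPKM and left numbers 1 and 2 only. Those p-values therefore describe the libraries kept. Leaving out number 3 of dpc16 zone 2 alone gave 4.01 in that zone (adjusted p = 0.0284), and leaving out number 3 of dpc16 zone 3 alone gave 4.84 (adjusted p = 0.00777). Against dpc8 the differences were 2.29, 2.99 and 3.05 (adjusted p = 0.355, 0.203 and 0.188), and with these libraries left out they were 2.28, 4.64 and 4.62 (adjusted p = 0.0457, 0.000766 and 0.000266). The genes most like Fgf21 over the 27 libraries were Ldha (r = 0.939, Spearman's rho 0.570), Adcy1 (r = 0.922, rho 0.559) and 2010003K11Rik (r = 0.906, rho 0.649), with lower rank correlations than Pearson correlations.

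The promoters of Fgf21 and Angptl8 are shown because both hold, as does Inhbe, the letters TGATGNAA. These letters are the composite element of C/EBP and ATF factors, through which ATF4 acts in the integrated stress response. The windows are chr7:45615491-45615740, minus strand, and chr9:21835260-21835509, plus strand, from RefSeq on GRCm38.p6, and the capitals mark the match, on the opposite strand in Fgf21.

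Fgf21: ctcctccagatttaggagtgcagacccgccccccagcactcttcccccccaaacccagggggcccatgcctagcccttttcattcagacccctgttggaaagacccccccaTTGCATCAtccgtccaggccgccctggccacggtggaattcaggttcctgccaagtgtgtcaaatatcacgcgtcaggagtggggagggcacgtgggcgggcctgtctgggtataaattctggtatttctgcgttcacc

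Angptl8: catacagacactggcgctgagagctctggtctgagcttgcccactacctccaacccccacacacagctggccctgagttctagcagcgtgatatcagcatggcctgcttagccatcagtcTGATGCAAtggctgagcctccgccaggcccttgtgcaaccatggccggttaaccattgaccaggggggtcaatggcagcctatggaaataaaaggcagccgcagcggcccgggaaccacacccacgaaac

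The matches lie 139 to 132 bases before the start of Fgf21 and 130 to 123 bases before that of Angptl8. In Inhbe the match TTGCATCA lies 181 to 174 bases before the RefSeq start, inside the longer first exon that GENCODE draws. The element was found in 3.45% of the 32851 windows and in 3 of the 8 members. The STAT motif TTCNNNGAA, in 7.02% of windows, was in 0 of the 8, which says only that these letters are not in these windows.

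At dpc16 the number 3 libraries were the lowest for Fgf21 and for Inhbe in all 3 zones, and for Angptl8 in zones 2 and 3. The same held in all 3 zones for Angptl4 and Gdf15, and in zones 2 and 3 for Ahsg, Fetub and Angptl6, so a low number 3 was not particular to the 3 genes with these letters. Of 16 listed targets of the integrated stress response 15 genes were tested, and in 22 comparisons 0 were called higher and 2 lower. Both were Vldlr, a lipoprotein receptor, which was lower in zone 1 than in zone 3 at NP (-2.26, adjusted p = 0.0321) and dpc8 (-2.58, adjusted p = 0.00964), the former not called without the 6 libraries with Y-linked FPKM (-2.56, adjusted p = 0.0532). Atf4 itself ranged from 33.0 to 74.9 FPKM. Of 16 PPARalpha targets, 1 was higher at dpc16 than at NP in zone 1 and 1 in zone 3, with list medians of 1.31 and 0.79 against -0.05 and 0.01 over all genes. Both calls were Plin2, a lipid droplet coat protein (1.82, adjusted p = 0.0339, and 1.75, adjusted p = 0.0457). Over the 22 comparisons the list had only these calls, 2 higher and 0 lower, so no target was called in zone 2.

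On the receptor side, 5 of 7 genes were tested. Klb, the beta-Klotho coreceptor of FGF21, ranged from 6.43 to 29.2 FPKM and was not called in any comparison. Fgfr3 was higher in zone 1 than in zone 3 at NP (1.37, adjusted p = 0.0365) and Fgfr2 at dpc16 (2.57, adjusted p = 0.00053), the former not called without the libraries with Y-linked FPKM (1.24, adjusted p = 0.154). Gfral, the GDF15 receptor, was listed at 0 in all 27 libraries, and Ret, its partner, reached 0.119 FPKM.

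Gdf15 ranged widely between the library numbers of NP mice. Its gene (ENSMUSG00000038508.7) lies on the minus strand of chromosome 8 at 70629393 to 70632456. NP libraries 1, 2 and 3 had 25.5, 6.44 and 1.20 FPKM in zone 1, 34.6, 7.68 and 0.602 FPKM in zone 2, and 15.7, 3.80 and 0.843 FPKM in zone 3. Number 1 was highest and number 3 lowest in all 3 zones, and within zone 2 the highest value was 57.5 times the lowest. Number 1 of zone 1 and number 2 of zone 3 are among the libraries with Y-linked FPKM, and zone 2, which has no such library at NP, had the same order. The dpc8 values ranged from 3.42 to 9.31 FPKM and the dpc16 values from 2.03 to 4.40 FPKM, both inside the NP range of 0.602 to 34.6. No Gdf15 difference was called in any comparison. At dpc16 against NP it was -0.80, -1.15 and -0.14 in zones 1, 2 and 3, with an SE of 0.85. Leaving out these 6 libraries turned the sign in zone 1, and the differences were 0.10, -1.06 and -0.14. Against dpc8 its values did not overlap in zones 1 and 2, as for 19.9% and 13.8% of genes. The genes most like Gdf15 were Dnmbp (r = 0.724), Dcaf6 (0.723) and Polm (0.693).

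**Figure D3:**
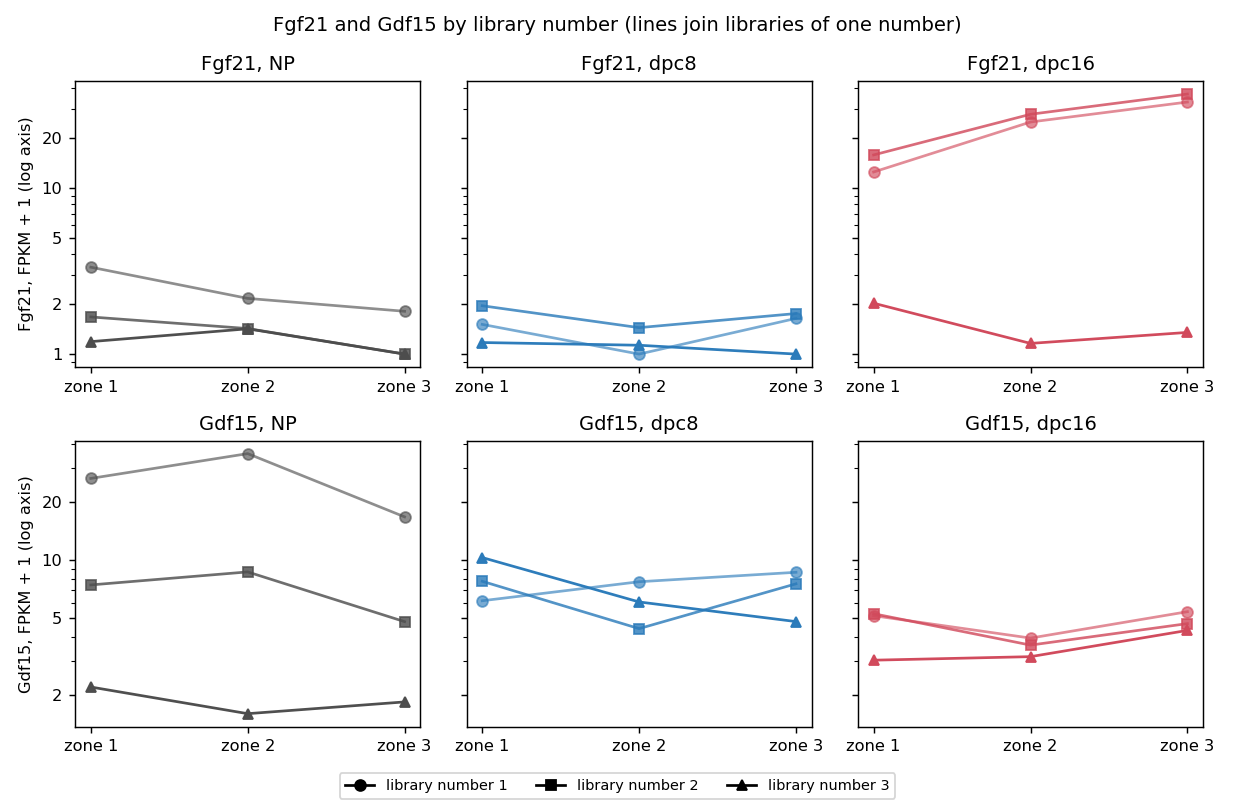
Fgf21 (top) and Gdf15 (bottom) as FPKM + 1 on a log axis, by zone and stage, with lines joining the libraries that carry the same number. At dpc16 the Fgf21 line of number 3 stays at 0.160 to 1.03 FPKM while the others lie at 11.5 to 35.9, and in NP mice the 3 Gdf15 lines stay apart in all zones.

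The fetuins were the most abundant members. Ahsg (ENSMUSG00000022868.6) and Fetub (ENSMUSG00000022871.13) lie next to each other on the plus strand of chromosome 16, at 22891277 to 22899449 and 22918334 to 22939778. Ahsg ranked 3 to 9 among all genes of a library by FPKM and Fetub ranked 101 to 319. Both were called higher at dpc16 than at dpc8 in zone 1. Ahsg had 4039, 5686 and 6032 FPKM at dpc8 and 17748, 20816 and 21296 FPKM at dpc16 in libraries 1, 2 and 3. The difference was 1.94 ± 0.40 (adjusted p = 0.0127). Fetub had 303, 293 and 289 FPKM at dpc8 and 700.3, 820.4 and 883 FPKM at dpc16, a difference of 1.43 ± 0.35 (adjusted p = 0.0378). In this comparison the values of 7 of the 9 members did not overlap, against 19.9% of all genes, and 3 were called, against 2.01%.

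Both calls depended on single libraries. The Ahsg difference was not called without number 1 of dpc8 zone 1 or without number 2 of dpc16 zone 1, with differences of 1.76 to 2.05 over the 6 omissions, and under quantile normalization it was 0.81 and still called (adjusted p = 0.0169). The Fetub call was lost with any of the 6 libraries left out, at values of 1.36 to 1.53, and under quantile normalization and upper-quartile scaling. Without the libraries with Y-linked FPKM the differences were 1.76 (adjusted p = 4.02e-06) for Ahsg and 1.45 (adjusted p = 0.000377) for Fetub. In zones 2 and 3 the differences from dpc8 were 1.24 and 1.02 for Ahsg (adjusted p = 0.156 and 0.259) and 0.76 and 0.42 for Fetub (adjusted p = 0.396 and 0.719). With the Y-linked libraries left out they were 1.62 and 1.33 for Ahsg (adjusted p = 3.52e-05 and 9.27e-05) and 1.07 and 0.72 for Fetub (adjusted p = 0.0109 and 0.0626), and under quantile normalization Ahsg in zone 2 was also called (0.74, adjusted p = 0.0308). In zone 1, of 4 hepatocyte markers, 3 were also higher in this comparison, namely Apoa1 (3.16), Alb (1.87) and Serpina1a (1.61). The red blood cell marker Alas2 (2.06) and the periportal marker Aldh1b1 (1.84) were higher there too. Of the pericentral markers, Glul was higher (1.67) and Cyp1a2 lower (-2.48). The part of these marker differences in the fetuin results was not tested.

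Against NP the zone 1 differences were 1.39 for Ahsg and 1.21 for Fetub (adjusted p = 0.102 and 0.105). The NP values of 4555, 8328 and 11571 FPKM for Ahsg and 250, 339 and 478 FPKM for Fetub lay below all dpc16 values, as for 17.4% of genes. In zone 2, libraries 1, 2 and 3 at dpc16 had 19597, 19981 and 5909 FPKM of Ahsg and 846, 749 and 263 FPKM of Fetub. In zone 3 they had 14587, 16216 and 8022 FPKM of Ahsg and 725, 741 and 393 FPKM of Fetub. The number 3 library was the lowest in both zones and is in both cases a library with Y-linked FPKM. The differences from NP in zones 2 and 3 were 0.63 and 0.85 for Ahsg (adjusted p = 0.472 and 0.426) and 0.27 and 0.44 for Fetub (adjusted p = 0.759 in both). Without these libraries Ahsg was higher at dpc16 than at NP by 1.02 in zone 1 (adjusted p = 0.00123), 1.21 in zone 2 (adjusted p = 0.000220) and 1.09 in zone 3 (adjusted p = 0.00156), and Fetub by 0.98 in zone 1 (adjusted p = 0.0118) and 0.80 in zone 2 (adjusted p = 0.0312), with 0.64 in zone 3 (adjusted p = 0.138). The Ahsg differences between zone 1 and zone 3 were 0.14, -0.24 and 0.68 at NP, dpc8 and dpc16, with an SE of 0.40, and 0.45, -0.06 and 0.37 without these libraries.

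Ahsg and Fetub were also the most alike pair of members over the 27 libraries (r = 0.912). The genes most like Ahsg were those of the plasma proteins Trf (transferrin, r = 0.967), Serpina1a (0.966) and Serpina11 (0.963). Those most like Fetub were Igfbp4 (0.939), F5 (coagulation factor V, 0.929) and Pzp (0.921). The family members Hrg, Kng1 and Kng2 were at 261 to 998, 827 to 3496 and 92.7 to 344 FPKM, and 0 of these 3 were called by limma in 22 comparisons, with 7 tests at an unadjusted p under 0.05.

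Inhbe levels were higher toward the central vein, without a call. The gene (ENSMUSG00000047492.5) lies on the minus strand of chromosome 10 at 127348857 to 127354411, with a single transcript of 5319 bases and 2 exons, and overlaps an antisense gene, Gm47200. In NP mice libraries 1, 2 and 3 had 3.19, 3.37 and 3.96 FPKM in zone 1, 6.09, 4.77 and 7.55 in zone 2, and 9.25, 4.89 and 14.8 in zone 3. At dpc8 zone 1 had 3.11, 4.01 and 3.59 FPKM and zone 3 had 11.1, 11.1 and 7.36. All zone 1 values lay below all zone 3 values at both stages, as for 12.7% and 23.2% of genes. The differences between zone 1 and zone 3 were -1.13, -1.23 and -1.09 at NP, dpc8 and dpc16, with an SE of 0.58 (adjusted p = 0.685, 0.397 and 0.730). Without the libraries with Y-linked FPKM the dpc16 difference was -1.75 (adjusted p = 0.0165).

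At dpc16 Inhbe had 7.89, 14.0 and 4.11 FPKM in zone 1, 12.7, 19.2 and 1.75 FPKM in zone 2, and 22.0, 37.1 and 6.54 FPKM in zone 3. Number 2 was highest and number 3 lowest in each zone, which is also the order of Fgf21. The dpc16 differences from NP were 0.97, 0.37 and 0.93 in zones 1, 2 and 3 and were not called. Without the 6 libraries with Y-linked FPKM, which include number 3 of zones 2 and 3, they were 0.92, 1.24 and 1.22 (adjusted p = 0.266, 0.0795 and 0.138), and with array weights the zone 2 difference was called (1.36, adjusted p = 0.0404). Against dpc8 the zone 3 difference was 0.81 (adjusted p = 0.644), or 1.47 with those libraries left out (adjusted p = 0.0409). Among the other genes of the activin axis 10 of 12 were tested. The 1 call in 22 comparisons was Inhbc, which encodes the related beta-C subunit and was higher at dpc16 than at dpc8 in zone 1 (2.30 ± 0.48, adjusted p = 0.0132). Mean Inhbc levels were 12.3, 17.2 and 27.2 FPKM in zones 1, 2 and 3 at dpc8 and 64.8, 70.3 and 98.4 FPKM at dpc16. The genes most like Inhbe were Hacd3 (r = 0.923), Tle1 (0.923) and Eci2 (0.865).

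The 3 angiopoietin-like members were not called in any of the 22 comparisons by limma. Angptl4 (chromosome 17, 33773750 to 33781830, minus strand) had 55.8, 21.9 and 23.6 FPKM in libraries 1, 2 and 3 of NP zone 1, and 110.3, 101 and 80.8 FPKM in dpc16 zone 1. The groups did not overlap, as for 17.4% of genes, and the difference was 1.62 ± 0.61 (adjusted p = 0.278). It was called with array weights (1.95, adjusted p = 0.0332). In zones 2 and 3 the differences were 0.71 and 1.15, with overlapping values. Without the 6 libraries with Y-linked FPKM the 3 differences were 2.04, 1.25 and 1.07 (adjusted p = 0.0920, 0.280 and 0.483). Number 1 held the highest Angptl4 value in 8 of the 9 groups, by up to 105 against 22.4 and 36.0 FPKM in NP zone 2. Its closest genes over the 27 libraries were Rab30 (r = 0.895), Ctif (0.851) and Fbxo31 (0.850).

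**Figure D4:**
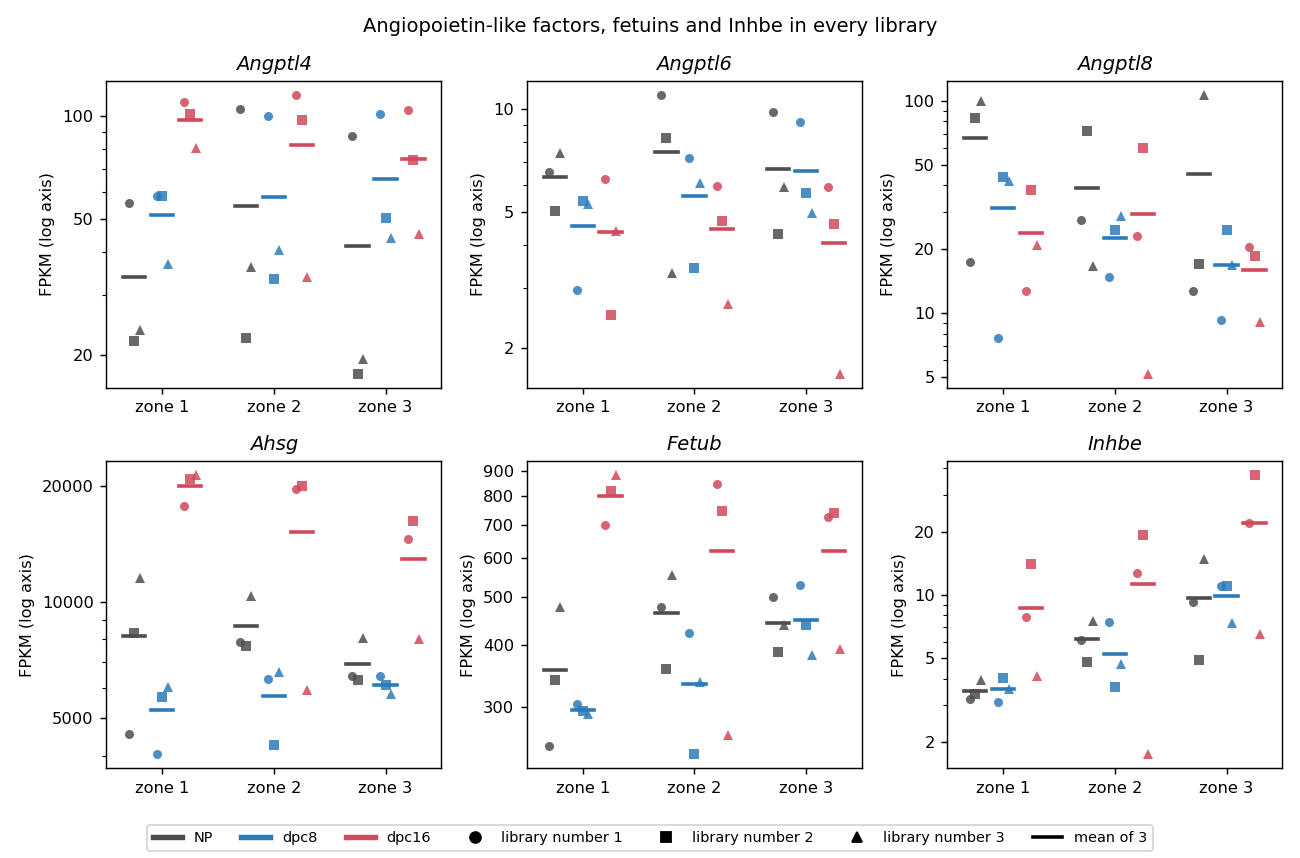
Angptl4, Angptl6, Angptl8, Ahsg, Fetub and Inhbe in every library, in FPKM on a log axis, by zone (horizontal), stage (colour) and library number (symbol), with the mean of 3 as a bar. Ahsg and Fetub at dpc16 lie above the other stages in zone 1, at 17748 to 21296 and 700.3 to 883 FPKM, and the number 3 symbols of dpc16 zones 2 and 3 lie low.

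Angptl8 (chromosome 9, 21835510 to 21837347, plus strand) lies inside Dock6, a gene of the opposite strand, and the sources used here do not state whether strand was used in counting. Its values scattered widely within groups. Libraries 1, 2 and 3 had 17.5, 83.2 and 100.04 FPKM in NP zone 1, and 12.7, 17.0 and 107 FPKM in NP zone 3. The dpc16 values ranged from 5.19 to 59.9 FPKM, and the differences from NP were -1.25, -0.67 and -0.88 in zones 1, 2 and 3 with an SE of 0.86. After leaving out the 6 libraries with Y-linked FPKM they were -2.02, 0.20 and -0.91, so the sign turned in zone 2. Closest to it were Coa3 (r = 0.792), Marveld2 (0.765) and Gsap (0.735). Angptl6 (chromosome 9, 20873808 to 20879727, minus strand), linked to energy expenditure in mice, was at 1.68 to 11.0 FPKM in all 27 libraries. Its largest difference between groups at dpc16 against NP was -0.65 in zone 3 (SE 0.41, adjusted p = 0.624). Closest to Angptl6 were Klf15 (r = 0.849), Cyp2d22 (0.812) and Naxd (0.783).

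Of the partners of these factors in lipoprotein metabolism, 9 of 11 were tested. At dpc16, 1 gene was higher and 1 lower than at NP in each of the 3 zones, and likewise against dpc8. The higher gene was Apoc2, the activator of lipoprotein lipase (2.43, 1.85 and 2.64 in zones 1, 2 and 3 against NP). The lower gene was Lipc, hepatic lipase (-1.97, -3.44 and -2.89). Mean Lipc levels were 102, 156 and 154 FPKM in zones 1, 2 and 3 of NP mice and 25.6, 14.5 and 21.1 FPKM at dpc16.

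Of 15 other hepatokines 14 were tested, and Shbg was listed at 0 in all libraries. Only Dpp4 and Manf were called. Dpp4, a protease that the liver also releases, was lower at dpc16 than at NP in zone 2 (-1.69 ± 0.30, adjusted p = 0.0023) and lower than at dpc8 in zones 1 and 2 (-1.15 and -1.49). Manf, an endoplasmic reticulum protein that is also secreted, was higher than at dpc8 in zone 2 (1.98 ± 0.50, adjusted p = 0.045). The most abundant gene of this list was Selenop, the selenium carrier of plasma, at 1742 to 8070 FPKM.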

How the data were processed

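The deposited FPKM values were used as given. According to the study's methods and processing notes, the authors depleted ribosomal RNA, trimmed reads with cutadapt, aligned them to mm10 with HISAT2 2.1.0 and ran Cuffdiff (Cufflinks 2.2.1) on protein-coding GENCODE models to obtain FPKM. A value therefore depends on the transcript lengths of that annotation. Whether strand was used in counting is not given in the sources used here. Groups and numbers came from the sample titles. The limma package (version 3.58.1, R 4.3.3) was run on log2(FPKM + 1) for the 12952 of 21823 genes that reached 1 FPKM in 3 or more libraries. A mean was fitted to each of 9 groups, with trended and robust moderation, in 22 contrasts, and the fit was tested on simulated data. Depth was estimated from genes with a single transcript over 600 bases, in which 92.8% to 97.0% of low values fell within 0.1 of a whole read. Such depths cover counting error only. Numbers were taken to pair 2 groups where all 3 correlations of the deviations of same-numbered libraries from their group means exceeded 0.1. This held in 6 of 18 comparisons, namely the 3 between zones at dpc16 (0.26 to 0.86), zones 2 and 3 at dpc8 (0.32 to 0.35), and dpc8 against NP in zones 1 and 3 (0.27 to 0.68 and 0.10 to 0.21). Named genes were the 9 members, the 3 genes with the highest Pearson r to each, and up to 4 called genes of each further list. The members and lists were chosen with earlier results of these data known. Gene positions came from GENCODE vM21 and promoters from RefSeq on GRCm38.p6.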

Additional observations from a re-analysis of the deposited data

How the results depend on the processing

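Each result was recomputed with a pseudocount of 0.1, no filter, a filter at 9 libraries, quantile normalization, upper-quartile scaling, only the groups compared, a replicate block, array weights, a covariate for connective tissue genes, and after leaving out the libraries with Y-linked FPKM or each library in turn. Of 148 values of called differences under the settings other than single omissions, 141 kept the call and 7 lost it, and of 84 under single omissions 73 kept it, and in both sets 0 reversed. With only the groups compared, the calls between zone 2 and an outer zone fell from 5 to 1. At dpc16 against NP the 2 calls became 5 with a replicate block (gaining Lect2 and Fgf21 in zone 3 and Angptl4 in zone 1), 13 with array weights, 11 after leaving out the Y-linked libraries and 6 with the covariate. At dpc16 against dpc8 the 4 calls became 13, 11 and 7 with array weights, without those libraries and with the covariate. The 0 calls in the change compared between zones became 1 under each of the replicate block, the replicate block within stage, array weights and the covariate, each time Lect2 in zone 1 against zone 3 (adjusted p = 0.0431 with the replicate block and 0.00974 with the block within stage). The cause was not tested. Single omissions gave 2 to 6 calls at dpc16 against NP and 2 to 7 against dpc8, the highest in both without number 3 of dpc16 zone 2, and the lowest against dpc8 without number 1 of dpc8 zone 1 or number 2 of dpc16 zone 1. In the 6 comparisons whose numbers pair the libraries, the block changed no call of a member. Fitted within stage, it raised the calls over all genes from 201, 18 and 67 to 343, 33 and 111 at dpc16 (zone 1 against 3, 1 against 2 and 2 against 3) and from 45 to 73 between zones 2 and 3 at dpc8. In the other comparisons, where the pairing check was not met, the block also gained Lect2 between zones 2 and 3 at NP and, within stage, Inhbe between zones 1 and 3 at dpc8. FPKM gives no counts, so the few reads of Lect2 in dpc16 zone 1 and of Fgf21 outside dpc16 limit how small a difference can be seen there.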
